A study of Mus musculus with 8 samples.

Results

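The genes described here encode the proteins of the cytosolic ribosome. They were taken from the deposited table by exact match of chromosome, start, end and strand to a protein-coding gene of GENCODE M21 (mouse build GRCm38). Symbols had to be Rpl or Rps followed by a digit, or Rpsa, Rplp0, Rplp1, Rplp2 or Fau. Kinases of the Rps6k group, Rps19bp1, paralogues with symbols ending in l or l1 and pseudogene symbols with -ps were left out. Of 79 annotated genes that met this rule, 37 had a row among the 2372 rows of the table: 23 of 46 for the large subunit and 14 of 33 for the small subunit. A row for Fau, the gene of a small subunit protein made as a fusion with a ubiquitin-like protein, matched its gene only by overlap and is described apart.

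A ribosome joins a small (40S) subunit, which binds the mRNA and reads its codons, to a large (60S) subunit, which forms the peptide bonds and releases the chain through an exit tunnel. Most of its proteins are made in equal numbers, 1 of each to a ribosome, and their mRNAs are among the most abundant of any cell. These mRNAs begin with a tract of pyrimidines, the 5′ terminal oligopyrimidine (TOP) motif, through which the mTOR pathway controls their translation. In neurons, ribosomes and mRNAs for their proteins are found in dendrites and axons as well as in the cell body.

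RNA came from the medial prefrontal cortex (mPFC) of 8 naive adult male mice on a C57Bl/6J background. The 4 CaKO mice were CamK2A-Cre;Gpr158fl/fl, in which the Camk2a promoter drives Cre in forebrain excitatory neurons and Cre deletes the orphan receptor gene Gpr158. The 4 controls were Gpr158fl/fl littermates without Cre, so both groups carry the floxed alleles and the controls hold no Cre-only animal. The study asked what changes in the mPFC when excitatory neurons lose GPR158. The RNA is from whole tissue with all its cell types, in which fewer cells of a type and less RNA per cell cannot be told apart.

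The values are read counts that the authors divided by 1 factor per library (normalised counts), given for the 4 CaKO libraries, with a log2 fold change and p-values of CaKO against control. Values of single control libraries were not used here, so each control level below is the 1 implied by the CaKO mean and the deposited fold change and has no spread of its own. The table lists only genes with an unadjusted p below 0.05. Reads over its rows numbered 2832931 to 3183638 per CaKO library, of which the 37 genes took 65765 to 70827 (2.07% to 2.50%). Gpr158 has 0 rows, so it was either not tested or had no p below 0.05. The listed rows thus give no sign of the deletion, which was not checked. CaKO replicate 3 stood apart: among the rows in the authors' adjustment that are not ribosomal protein genes, it was the highest library in 48.9% of the 899 higher in CaKO and the lowest in 59.7% of the 1111 lower in CaKO.

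Most of the ribosomal protein genes with a row were higher in CaKO mPFC, and a minority, led by Rpl23a and Rpl28, was lower. By the authors' adjusted p (Benjamini-Hochberg) below 0.05, 15 of the 79 genes rose and 5 fell. The risers included Rps12, Rpl35a, Rps21, Rps19, Rpl10, Rpl37, Rpl26, Rpl30, Rps15a, Rpl14, Rps3, Rps2, Rpl3 and Rpl12, at 1.17 to 1.61 times the implied control level in the authors' deposited table. The 5 that fell were Rpl23a, Rpl28, Rps29, Rpl19 and Rpl32, at 38.1% to 83.3% of the implied control level in the authors' deposited table. These are 19.0% and 6.33% of the annotated genes, against 1.27% of 12938 genes tested that rose and 1.97% that fell (3.24% in either direction). At the unadjusted p below 0.05 that defines the table, 25 were higher and 12 lower, 46.8% of the annotated genes against 15.8% of all genes tested (7.14% higher, 8.68% lower).

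The median log2 fold change was 0.36 over the 25 higher genes and -0.33 over the 12 lower ones, against 0.31 and -0.37 for all rows higher and all rows lower in the authors' deposited table. The sizes of change were thus near those of all rows. Of the ribosomal protein rows, 67.6% were higher, against 45.1% of all 2047 rows in the adjustment. These medians cover only genes that reached the table, which had to differ to be listed. The genes were also more abundant than most, with a median CaKO mean of 1546 normalised counts against 483.5, and their median standard error was 0.11 on the log2 scale against 0.13. The part of this precision in the count of calls was not tested. The median of all rows was below 0, at -0.23. Relative to it 25 genes passed as higher and 0 as lower, while Rplp1, Rps20 and Rps24 turned from lower to higher. This median comes from rows filtered by p: in the adjustment, higher rows start at 0.14 and lower rows at -0.13. It falls among the lower rows, which are the more numerous (1123 against 924), and so does not measure a general offset between the groups. The shift moves every gene up by the same amount and is no test of direction.

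**Figure D1:**
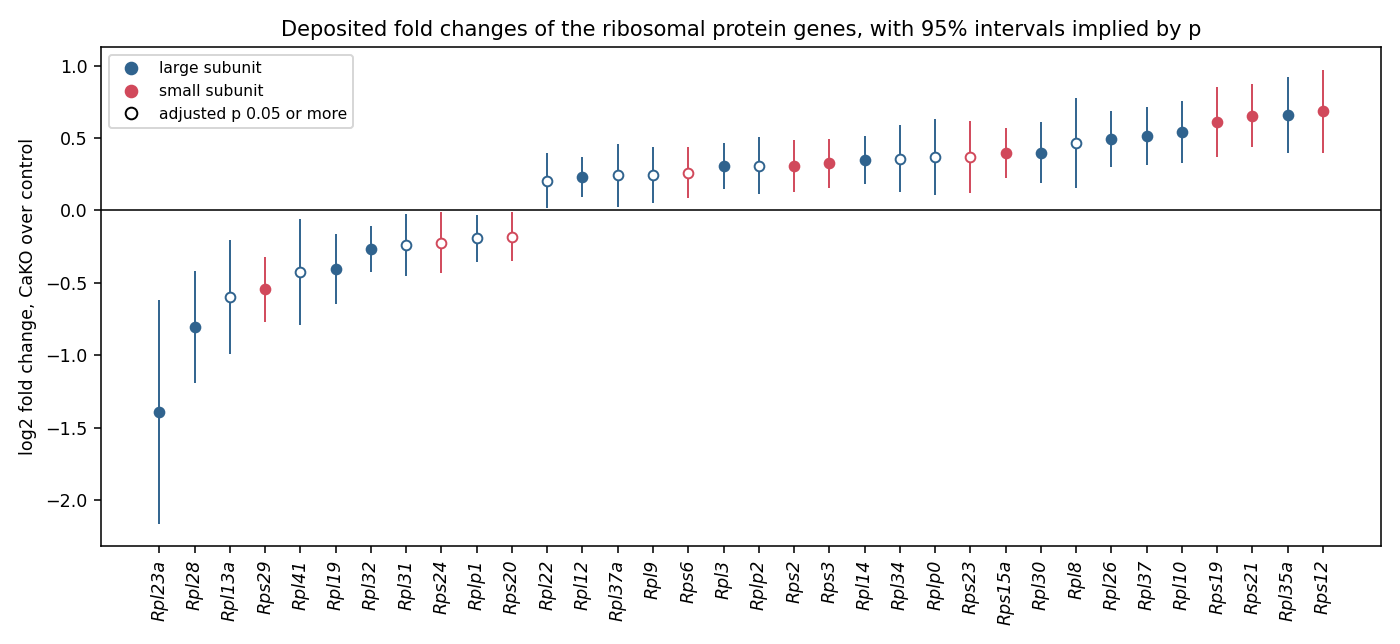
Log2 fold change of CaKO over control (vertical axis) for 34 of the ribosomal protein genes, ordered by value, from the authors' deposited table. Bars are the 95% intervals implied by the deposited p-value, colours mark the subunit and filled points have an adjusted p below 0.05. The 11 lower genes shown run from -1.39 to -0.18 and the 23 higher genes shown from 0.21 to 0.68. Relative to the median of all rows, the lower genes Rplp1, Rps20 and Rps24 lie above 0. That shift moves every gene up by the same amount and is no test of direction.

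The start regions of these genes carry short motifs, and a few are shown because genes that share them lie on both sides of the change. Promoter windows of 300 bases, 250 before to 50 after the start, were available from RefSeq (build GRCm38.p6) for 59 of the 79 genes, 26 of them with a row. CTCTTTC is a run of pyrimidines of the kind found in TOP tracts, and CCGGAAG is the core bound by ETS family factors such as GABP. Each was searched on both strands, and capitals mark the match.
Rpl28: ctctcgtgtctCTCTTTCcgtctccggccg
Rps15a: cccggcccactCTCTTTCtgccatcttccc
Rpl26: cgcgtgtagttCTCTTTCcttttgcggcca
Rpl35a: ggcttgccttcCTCTTTCcgccatcttggc
Rpl37: accaagacccgCCGGAAGtagtttcctggg
Rps21: agtaccctgacCCGGAAGcacttaccgagg
Rpl19: acttagcgtgaCTTCCGGctacccagagga
The windows lie at chr7:4792954-4792983 on the plus strand (Rpl28), chr7:118116142-118116171 on the minus strand (Rps15a), chr11:68901578-68901607 on the plus strand (Rpl26) and chr16:33056471-33056500 on the plus strand (Rpl35a). Those with the ETS core lie at chr15:5116579-5116608 (Rpl37), chr2:180257342-180257371 (Rps21) and chr11:98026660-98026689 (Rpl19), all on the plus strand, and in Rpl19 the core reads on the other strand. Each sequence is written 5′ to 3′ on its gene's strand.

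CTCTTTC was found in 32.2% of the 59 ribosomal protein genes with a window, against 9.28% of 27025 mouse genes with a window. A gene counted where any of its windows matched. CCGGAAG was found in 40.7% of the 59, against 9.93% of all genes with a window. Among genes with a row and a window, CTCTTTC stood in 6 of 20 higher genes and 2 of 6 lower genes. On the gene's strand alone these were 4 of 20 and 2 of 6. CCGGAAG stood in 7 of 20 and 3 of 6. Both motifs thus occurred on either side of the change, in Rpl28 and Rpl19 that fell as in Rpl35a and Rpl37 that rose. In 3 genes with a row both motifs were found, and in 0 windows did the motifs share bases. A match describes the letters of the window and is no evidence of binding.

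The 60S proteins that rose most were Rpl35a, Rpl10, Rpl37 and Rpl26. Rpl35a (chr16:33056453-33060189, plus strand), 1 of the genes mutated in Diamond-Blackfan anaemia, a ribosome disorder of red cell production, stood at 479, 539, 719.7 and 661 normalised counts in CaKO replicates 1 to 4, a mean of 600 ± 110 (SD, n = 4). All 4 values lay above the implied control level of 380, and replicate 1 was closest to it. The log2 change per the authors' deposited table was 0.66 (SE 0.14, adjusted p = 0.000371). Rpl10 (chrX:74270812-74273135, plus strand), an X-linked gene whose protein joins the 60S subunit late and is needed for it to pair with the 40S, had 2756, 2951, 3674 and 3376 normalised counts. Replicates 3 and 4 were the high pair, and even the lowest library exceeded the implied 2191. Its deposited log2 fold change, from the authors' deposited table, was 0.54 (SE 0.11, adjusted p = 0.000241).

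Rpl37 (chr15:5116645-5119140, plus strand), a zinc-binding 60S protein, had 1041, 1197, 1212 and 1307 normalised counts, all above the implied 832. For Rpl37 the authors' deposited table gives a log2 change of 0.52 (SE 0.10, adjusted p = 0.000204). Rpl26 (chr11:68901583-68906989, plus strand) lines the opening of the exit tunnel and also binds the p53 mRNA. Its libraries held 2995, 3273, 3933 and 3306 normalised counts, with replicate 3 the highest and the other 3 close together above the implied 2394. The authors' deposited table gives Rpl26 a log2 fold change of 0.50 (SE 0.10, adjusted p = 0.000232). These 4 genes remained past the threshold whichever CaKO library was left out.

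Smaller rises were seen in 4 other large subunit genes. Rpl30, a small rRNA-binding 60S protein, had 562, 607, 674 and 652 normalised counts against an implied 473, and a log2 change of 0.40 per the authors' deposited table (SE 0.11, adjusted p = 0.0153). Rpl14 had 2014, 2179, 2333 and 2315 against an implied 1738, and a log2 change of 0.35 per the authors' deposited table (SE 0.09, adjusted p = 0.00618). Rpl3, which reaches into the peptidyl transferase centre where peptide bonds form, is the most abundant of the 37 by its CaKO mean, 5703 ± 508 normalised counts (SD, n = 4). Its libraries held 5162, 5437, 6312 and 5900, in order replicates 1 to 4, and its log2 change per the authors' deposited table was 0.31 (SE 0.08, adjusted p = 0.0126). Rpl12, at the base of the stalk that recruits translation factors, had 2346, 2413, 2488 and 2507 against an implied 2077, and 0.23 per the authors' deposited table (log2, SE 0.07, adjusted p = 0.0394). Replicate 1 was the lowest CaKO library in each of these 4 genes, and all 16 values exceeded the implied control.

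Of the large subunit genes that fell, Rpl23a (chr11:78180932-78183584, minus strand) moved most. Its protein sits at the exit tunnel, where the signal recognition particle docks. The 4 CaKO libraries held 430, 233, 124 and 322 normalised counts, a mean of 277 ± 130 (SD, n = 4), all below the implied 727. Replicate 3 was the lowest and replicate 1 the highest, and the spread, 46.9% of the mean, was the widest of the 37 genes. Its log2 change per the authors' deposited table was -1.39 (SE 0.39, adjusted p = 0.0222). Without replicate 3 the value was -1.15 and without replicate 2 it was -1.32, and in neither case did it pass. Exons of Tlcd1 on the opposite strand overlap 59.7% of the Rpl23a exon bases, and whether counting used strand is not given in the sources used here.

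Rpl28 (chr7:4792874-4795066, plus strand) had 548, 600, 393 and 675 normalised counts, all below the implied 967, with replicate 3 lowest. Its log2 change per the authors' deposited table was -0.80 (SE 0.20, adjusted p = 0.00609), and -0.67 without replicate 3, which did not pass. Rpl28 carries the CTCTTTC tract printed above, as does Rpl35a, which rose. Rpl19 (chr11:98026710-98030492, plus strand), whose protein also borders the exit tunnel and bridges to the 40S subunit, had 1706, 1430, 1217 and 1798 against an implied 2034. The authors' deposited table gives it a log2 fold change of -0.40 (SE 0.12, adjusted p = 0.0394), and -0.37 without replicate 2 or -0.31 without replicate 3 did not pass. Rpl32 (chr6:115805505-115808747, minus strand) was the most even of the 5, at 895, 883, 902 and 983 against an implied 1099. Its log2 change of -0.26 per the authors' deposited table (SE 0.08, adjusted p = 0.0372) was the smallest of those that fell.

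In the small subunit the rises were led by Rps12, Rps21 and Rps19. Rps12 (chr10:23785183-23787275, minus strand), a protein of the 40S head, stood at 981, 1038, 1090 and 1022 normalised counts, 1033 ± 44.9 (SD, n = 4). These values were tightly grouped and all far above the implied 643. Its log2 change of 0.68 per the authors' deposited table was the largest rise of the 37 (SE 0.15, adjusted p = 0.000747). Rps21 (chr2:180257377-180258445, plus strand), with the ETS core printed above, had 1395, 1604, 1857 and 1639 against an implied 1031. In the authors' deposited table Rps21 has a log2 fold change of 0.66 (SE 0.11) and the smallest adjusted p of the 37, 2.46e-06. It is also the only gene that rose with exons under 1200 bases in all, and it has no near-identical copy.

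Rps19 (chr7:24884371-24889806, plus strand), the gene most often mutated in Diamond-Blackfan anaemia, had 1375, 1726, 1355 and 1567 normalised counts against an implied 987. Here replicate 3 was the lowest library, and all 4 exceeded the control level. Rps19 has a log2 change of 0.61 per the authors' deposited table (SE 0.12, adjusted p = 0.00025). Rps15a (chr7:118104372-118116188, minus strand) had 2133, 2353, 2487 and 2143 against an implied 1729.5, and a log2 change of 0.40 per the authors' deposited table (SE 0.09, adjusted p = 0.00136). The calls on Rps12, Rps21, Rps19 and Rps15a held whichever CaKO library was left out.

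Rps3 and Rps2 rose by less. Rps3, at the mRNA entry channel and also known for a role in DNA repair, had 2825, 3209, 2827 and 3040, and 0.33 per the authors' deposited table (log2, SE 0.09, adjusted p = 0.0135). Rps2, also at the entry channel, had 3664, 3101, 3036 and 3423, and 0.31 per the authors' deposited table (log2, SE 0.09, adjusted p = 0.0303). In Rps2 the order of libraries was the opposite of that in most risers, with replicate 1 highest and replicate 3 lowest. Rps2 has 11 near-identical copies, the most of the 37 genes.

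Rps29 (chr12:69157722-69159186, minus strand), a zinc-binding protein of the 40S head, was the small subunit gene that fell. Its libraries held 630, 594, 503 and 666 normalised counts, all below the implied 873. The log2 change per the authors' deposited table was -0.55 (SE 0.11, adjusted p = 0.000492). Of the 5 genes that fell, Rps29 was the 1 whose call held with each CaKO library left out. It has no near-identical copy, and no other gene's exons overlap it.

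The remaining 17 rows did not pass the adjusted threshold. Of the large subunit genes among them, Rpl8, a protein of the peptidyl transferase centre, had 1782, 2224, 2439 and 2933 normalised counts, with 0.47 per the authors' deposited table (log2, adjusted p = 0.0736). Rpl34, Rpl37a, Rpl9 and Rpl22 had log2 fold changes of 0.36, 0.24, 0.24 and 0.21 per the authors' deposited table. Rpl13a, Rpl41 and Rpl31 had -0.60, -0.43 and -0.24 per the authors' deposited table. Rpl41 encodes the shortest protein of the ribosome, from a coding sequence of 75 bases, and had 2249, 1749, 1050 and 2185, with replicate 3 alone far below the others. In the small subunit, Rps23 of the decoding centre and Rps6, the substrate of the S6 kinases downstream of mTOR, had 0.37 and 0.26 per the authors' deposited table (log2). Rps6 itself had 2508, 2702, 2957 and 2619 normalised counts (adjusted p = 0.0771 in the authors' deposited table). Rps24 and Rps20 had -0.22 and -0.18 per the authors' deposited table (log2). Both turned positive relative to the median of all rows, a shift equal for every gene that is no test of direction.

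Groups defined by place in the ribosome held genes of both directions. Beside the counts below, 15.8% of all genes tested had a row, 1.27% rose and 1.97% fell. Of the annotated ribosomal protein genes, 46.8% had a row. The stalk that recruits translation GTPases has all 3 of its genes in the table and 0 passed: Rplp0 had 0.37, Rplp2 0.31 and Rplp1 -0.19 per the authors' deposited table (log2, adjusted p = 0.106, 0.0603 and 0.207). Rplp1 had the highest level per length of all, a CaKO mean of 8513 normalised counts per kilobase of exon, from 4781, 4151, 3905 and 4155 normalised counts. At the exit tunnel 4 of 7 genes had a row (57.1%), and there Rpl26 rose while Rpl23a and Rpl19 fell. In the 40S head 6 of 14 had a row (42.9%), and Rps12, Rps19 and Rps3 rose while Rps29 fell. The 5S rRNA binders Rpl5 and Rpl11, known for restraining Mdm2, had 0 of 2 rows, too few genes to set against these shares.

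By subunit, 8 large subunit genes rose and 4 fell, 17.4% and 8.70% of those annotated. In the small subunit 7 rose and 1 fell, 21.2% and 3.03% of those annotated. Of all genes tested, 1.27% rose and 1.97% fell. With the unadjusted threshold the splits were 15 higher and 8 lower against 10 and 4. The median log2 fold change was 0.24 for the large subunit, with a range of -1.39 to 0.66, and 0.32 for the small subunit, with a range of -0.55 to 0.68, over rows of the authors' deposited table. Without genes whose exons overlap another gene, the large subunit median was 0.31. Of the annotated genes, 50.0% of the large and 42.4% of the small subunit had a row, against 15.8% of all genes tested. Both subunits thus held genes of either direction, and the difference between them was not tested, since genes are not replicates of a condition.

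Summed over their genes, both subunits were above the implied control in each CaKO library. The 23 large subunit genes summed to 40608, 41889, 43325 and 44717 normalised counts in CaKO replicates 1 to 4, 111% of the implied control sum on average. The 14 small subunit genes summed to 25490, 27052, 27085 and 26790, 118% of the implied control sum. The ratio of large to small was 1.59, 1.55, 1.60 and 1.67, 1.60 ± 0.05 (SD, n = 4), below the implied control ratio of 1.71 in each library. The implied ratio has no spread, so this was not tested, and both sums cover only genes with a row.

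**Figure D2:**
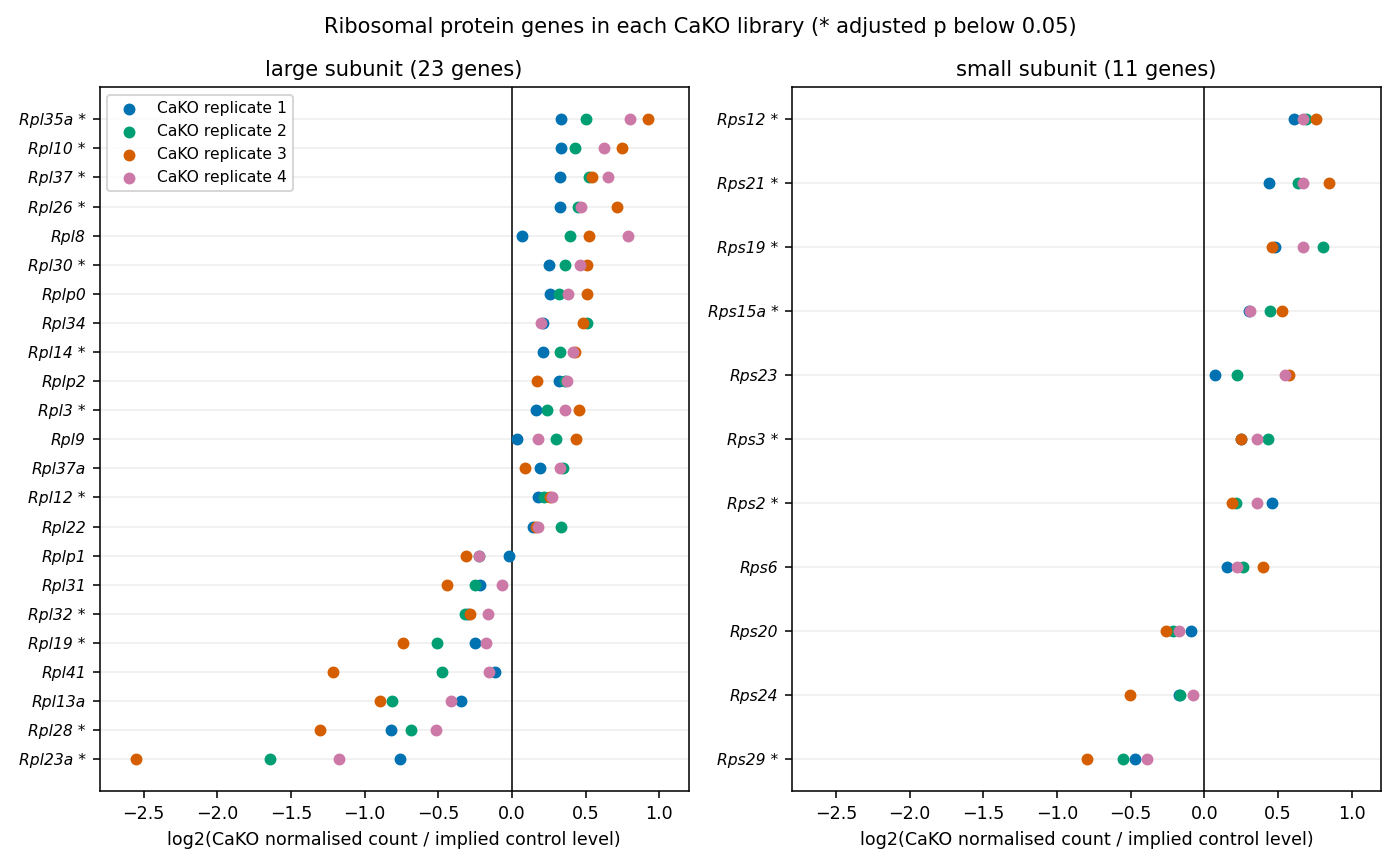
Log2 ratio of each CaKO library's normalised count to the implied control level (horizontal axis) for 23 large and 11 small subunit genes, 1 point per library, with stars for an adjusted p below 0.05. All 4 points of each gene lie on 1 side of 0, and replicate 3 is the lowest library in 10 of the 11 lower genes shown.

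All 37 genes had their 4 CaKO libraries on 1 side of the implied control, as had 91.5% of the other higher rows and 96.7% of the other lower rows, a share that the p-value filter of the table partly fixes. The libraries differed within this. Replicate 3 was the highest in 15 of the 25 higher genes (60.0%, against 48.9% of other higher rows) and the lowest in 11 of the 12 lower ones (91.7%, against 59.7%). Replicate 1 was the lowest in 19 of the 25 higher genes (76.0%, against 35.0%). The median log2 ratio to the implied control over the higher genes was 0.25, 0.37, 0.48 and 0.37 in replicates 1 to 4, and over the lower genes -0.24, -0.40, -0.62 and -0.17. Replicate 3 was thus farthest from control in both directions.

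Leaving out replicates 1, 2, 3 and 4 in turn, with the implied control held, kept 18, 14, 12 and 17 of the 20 calls. Without replicate 3, Rpl12, Rpl19, Rpl23a, Rpl28, Rpl3, Rpl30 and Rpl32 were among those that no longer passed, so that 11 rose and 1 fell. Without replicate 2, Rpl12, Rpl19, Rpl23a, Rpl32 and Rps3 were among those that did not pass. Without replicate 1, Rpl32 and Rps2 did not pass, and without replicate 4 the calls lost included Rpl12 and Rps2. No direction could change here, since all 4 libraries of each gene lay on 1 side of the implied control, which was held. Where these calls were lost, the log2 change was 0.26 for Rpl3 and 0.36 for Rpl30 without replicate 3. For Rps3 it was 0.29 without replicate 2. Rps2 stood at 0.26 without replicate 1 and 0.29 without replicate 4. Rpl12 ranged from 0.22 to 0.24 and Rpl32 from -0.26 to -0.25 over the libraries whose absence ended their calls. With all 4 libraries kept but the error of 3, 15 passed. The 10 calls that held each time were Rps21, Rpl37, Rpl26, Rpl10, Rps19, Rpl35a, Rps12, Rps15a, Rpl14 and Rps29.

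Genes with few exon bases, counted over all annotated exons of the gene, were mostly on the lower side. Exon bases per gene, as deposited, had a median of 2027 in the higher and 1095 in the lower genes. Of the 8 genes under 1200 bases, 7 were lower, and of the 29 at or above it, 5 were lower. The limit of 1200 bases was chosen after the values were seen. In other rows, 56.9% of the 174 under that length and 55.1% of the 1836 above it were lower, 2 shares that lie close together. The rank correlation of length with log2 fold change over the 37 genes was 0.27 for exon bases and 0.05 for coding bases. It was -0.008 for the length of a single annotated transcript per gene. These genes share their libraries and are not independent. Small nucleolar RNAs lie within 10 of the 25 higher and 5 of the 12 lower genes.

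**Figure D3:**
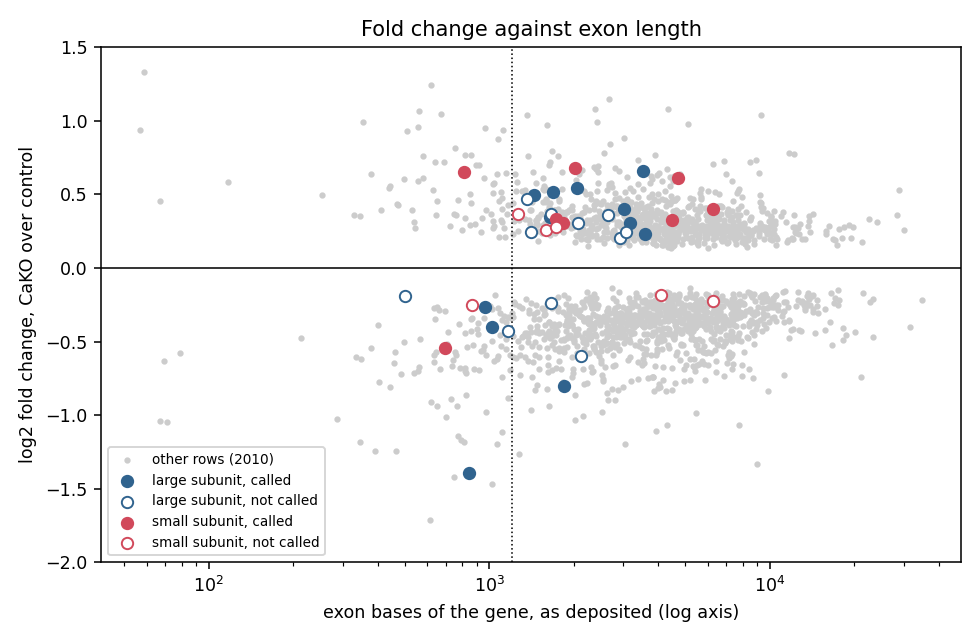
Log2 fold change of CaKO over control (vertical axis) against the gene's exon bases (horizontal, log axis) for the 37 ribosomal protein genes, coloured by subunit and filled where the adjusted p is below 0.05, with the 2010 other rows in grey and 2 of them outside the plotted range. The dotted line marks 1200 bases, below which 7 of 8 ribosomal protein genes are lower. Relative to the median of all rows Rplp1, the shortest, lies above 0, by a shift equal for every gene that is no test of direction.

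Ribosomal protein genes have spawned many processed pseudogenes, and reads from near-identical sequences can be assigned to either. A second transcript that matched at 98% identity over 200 or more bases existed for 29 of the 37 genes and for 16 of the 20 that passed. The 4 that passed without such a copy were Rps21 and Rps3, which rose, and Rps29 and Rpl32, which fell. The values of the other 16 are uncertain to the extent that their reads also matched a copy. Exons of another gene also cover part of Rpl31 (Tbc1d8, 25.3%, opposite strand), Rpl30 (D730044K07Rik, 20.4%, opposite strand) and Rpl13a (Gm45713, 29.4%, same strand). Among the rows in the authors' adjustment, 24 were such copies, and 8 of them rose and 4 fell. Of all genes tested, 1.27% rose and 1.97% fell. How many copies were tested is not known, so no share is given for them.

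Of these copies, 15 belong to a gene with a row, 9 with the same direction as that gene and 6 with the opposite. Rpl30-ps10, a processed pseudogene on the X chromosome that is 99.1% identical to Rpl30 over 347 bases, had 58.3, 84.2, 59.6 and 71.9 normalised counts. Its log2 change per the authors' deposited table was -1.18 (adjusted p = 2.37e-06), opposite to the 0.40 of Rpl30. In contrast, Rpl37rt, a transcribed copy of Rpl37, had 0.81 per the authors' deposited table (log2, adjusted p = 0.00298). Rpl17-ps3, whose parent Rpl17 has no row, was the most abundant copy, with 1422, 1427, 2117 and 1288 normalised counts. Its log2 change per the authors' deposited table was 0.96 (adjusted p = 7.4e-06). These copies were named after their values were seen.

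**Figure D4:**
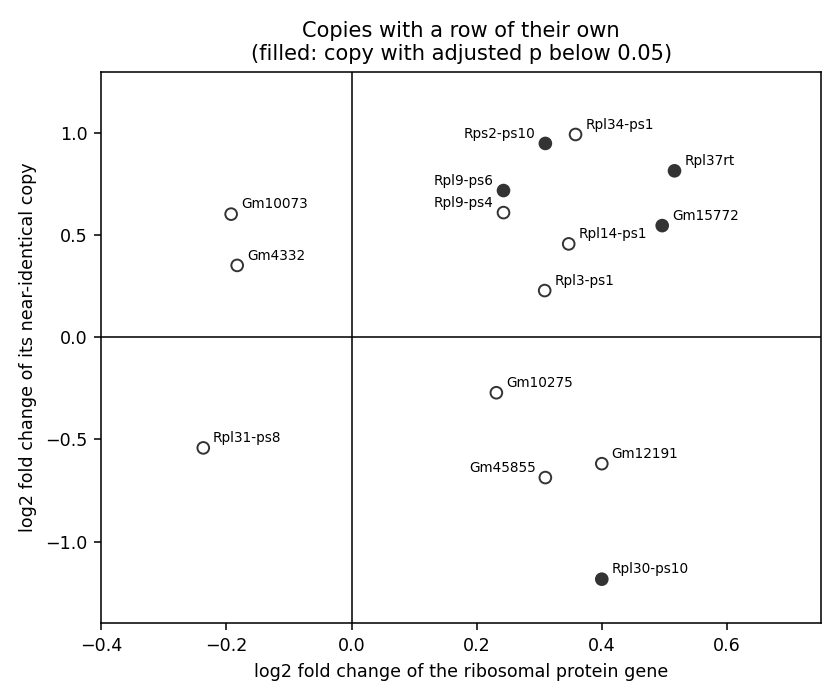
Log2 fold change of CaKO over control for near-identical copies (vertical axis) against that of the ribosomal protein gene they copy (horizontal axis), 1 point per copy, filled where the copy has an adjusted p below 0.05. In 9 of the 15 the signs agree, and Rpl30-ps10 lies farthest below 0 at -1.18. Of the genes copied, Rplp1 (Gm10073) and Rps20 (Gm4332) turn positive relative to the median of all rows. That shift is equal for every gene and is no test of direction.

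Fau, with 1541, 1826, 2070 and 2266 normalised counts, had a log2 change of 0.67 per the authors' deposited table (adjusted p = 7.4e-06), beside an implied control of 1209. All 4 libraries were higher than the control level, and counting it would make 16 risers. The paralogue Rpl22l1, kept out by the rule, fell, with 417, 271, 278 and 208 normalised counts and -0.69 per the authors' deposited table (log2, adjusted p = 0.0127). Its parent Rpl22 had 0.21 per the authors' deposited table (log2, adjusted p = 0.266).

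Other translation genes had rows at a share near that of all genes. Of 131 genes in 6 lists, 24 had a row (18.3%, against 15.8% of all genes tested), 7 higher and 17 lower, beside 924 higher and 1123 lower among all rows in the adjustment. By adjusted p, 2 rose (1.53%, against 1.27%) and 5 fell (3.82%, against 1.97%). Relative to the median of all rows 7 passed as higher and 0 as lower, by a shift equal for every gene that is no test of direction. Among 37 initiation factors, 12 had a row (32.4%, against 15.8% of all genes tested). Eif1, which guards start codon choice, and the eIF3 subunit gene Eif3i rose (0.34 and 0.30 per the authors' deposited table, log2, adjusted p = 0.0171 and 0.0388). The eIF2B subunit gene Eif2b2 and the poly(A)-binding protein gene Pabpc1 fell (-0.37 and -0.35 per the authors' deposited table, adjusted p = 0.035 and 0.013). Among 43 ribosome biogenesis genes 7 had a row (16.3%, against 15.8% of all genes tested). By adjusted p 3 fell and 0 rose, beside 1.97% and 1.27% of all genes tested. Nop10, of the pseudouridylation complex, had -0.74 and the rRNA methyltransferase gene Fbl -0.49 per the authors' deposited table (log2, adjusted p = 0.00679 and 0.0291). The 60S maturation factor gene Sbds had -0.46 per the authors' deposited table (log2, adjusted p = 0.00733).

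Of 19 non-ribosomal genes with a TOP motif, 5 had a row, 1 higher and 4 lower, and of these only Pabpc1 passed. The share with a row was 26.3% in this list, against 15.8% of all genes tested. It was 5.88%, 7.69% and 6.67% in the mTOR axis, elongation and termination, and nascent chain lists below. Among 17 genes of the mTOR axis Rheb alone had a row (0.27 per the authors' deposited table, log2, adjusted p = 0.0843). Eef1a2, the neuronal elongation factor, was the 1 of 13 elongation and termination genes with a row (-0.32 per the authors' deposited table, adjusted p = 0.159). Srp72 of the signal recognition particle was the 1 of 15 nascent chain factors with a row (-0.23 per the authors' deposited table, adjusted p = 0.102).

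**Figure D5:**
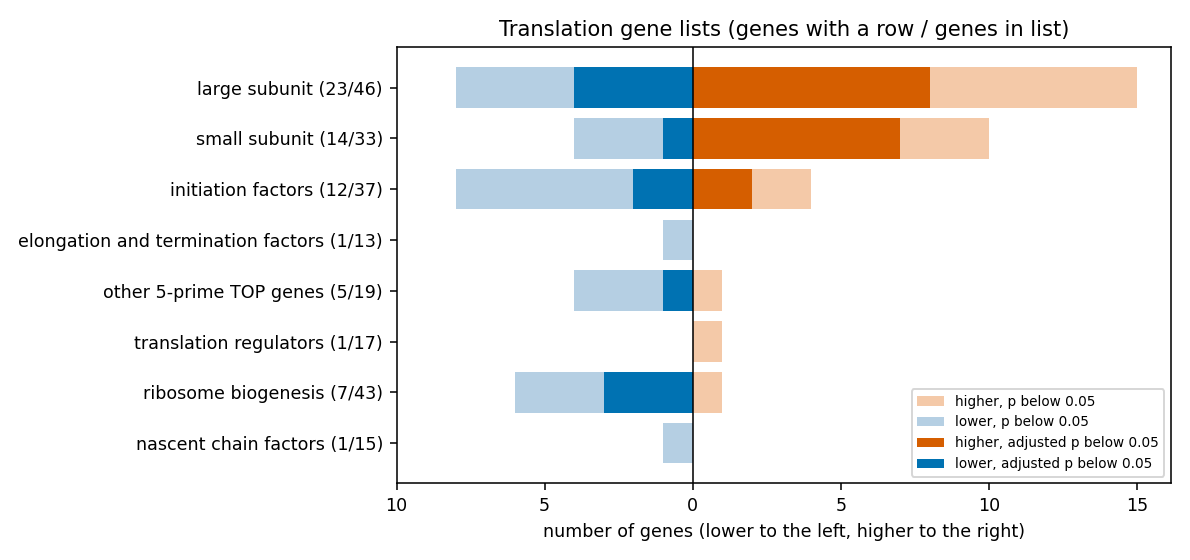
Number of genes with a row, higher (right) and lower (left) in CaKO, for the large and small subunit and 6 lists of other translation genes, with darker bars for an adjusted p below 0.05. The large subunit has 15 higher and 8 lower, the small subunit 10 and 4, and the biogenesis list 1 and 6. Relative to the median of all rows, the lower genes Rplp1, Rps20 and Rps24 turn positive and 0 pass as lower. That shift moves every gene up by the same amount and is no test of direction.

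Markers of 6 cell types were read in the same contrast, beside 15.8% of all genes tested with a row and 3.24% called. Of 10 markers of mature oligodendrocytes, 8 had a row, all lower in CaKO, and 4 fell. Their summed level was 34904 to 42435 normalised counts in the CaKO libraries against an implied 55890. For astrocytes 4 of 10 had a row, all lower (2 fell), summing to 10325 to 12908 against an implied 15160. For excitatory neurons 5 of 10 had a row, all lower (2 fell), with sums of 52093 to 72215 against an implied 79607. Endothelial markers had 3 of 10, all lower (1 fell, 1796 to 1876 against 2240), interneurons 1 of 10, Npy, which fell (585 to 907 against 1078), and microglia 1 of 10, Trem2, higher without passing (144 to 178 against 127). Of the markers with a row, 0 were at 0 in any CaKO library, and the excitatory neuron markers Camk2a and Nrgn had CaKO means of 46287 and 12792 normalised counts. The part of cell makeup in the ribosomal protein values was not tested.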

How the data were processed

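RNA of 8 mPFC samples (4 CaKO, 4 control, 1 mouse each, grouped by the genotype in their labels) was poly-A selected and sequenced as paired 100-base reads, per the labels' protocols. TopHat2 2.0.12, HTSeq 0.6.1, DESeq2 1.30.1 and the build GRCm38 (mm10) stand in the submitters' processing notes. The strand setting of the counting is not given in the sources used here. Each deposited library value is a signal, a read count that the authors divided by 1 factor per library: 100.0% were whole multiples of 1 step within 0.01 reads (0.9941 to 1.042 per read), although the table is named for FPKM. The table holds part of each library, so full depth is unknown.

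The deposited log2 fold changes were made by the authors. They are CaKO over control: the 18 rows listed at 0 in all CaKO libraries carry negative values. Both p-value columns, plain and adjusted, come from the authors too. The highest p-value is 0.0499, and the adjusted values follow Benjamini-Hochberg over 12938 genes (largest relative difference 0.005) for 2047 rows, with 325 further rows listed at 1 and left out. Calls use adjusted p below 0.05, and "rose" and "fell" refer to these only. A planned fit over both groups was replaced by the authors' p-values, because values of control libraries were not used here.

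Computed here (Python 3.11.15, SciPy 1.17.1) were means and SDs over the 4 CaKO libraries, the implied control level (mean divided by the fold change), the standard error and 95% interval implied by fold change and p, and overlaps with GENCODE M21 (2266 rows matched exactly, 89 by at least 80% mutual overlap, 17 not). Leaving out a library rescaled the error to 3 libraries and held the control. Copies were found with BLAST 2.17.0. Steps were tested on simulated data. Values of single genes are not reported here for 3 of the 37. The others were named, with each library's value for those that passed and the 3 per subunit with the highest mean per kilobase of exon. The genes and lists were chosen with earlier results of these data known. Alternatives covered the threshold, matching, copies, overlaps, scaling and single libraries.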

Additional observations from a re-analysis of the deposited data

How the results depend on the processing

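No paired analysis was possible because values of control libraries were not used here, so the replicate numbers shared by the groups could not be set against each other. An adjusted p below 0.01 left 9 risers and 2 fallers (large subunit 5 and 1, small subunit 4 risers, other translation genes 0 and 2). Below 0.1, other translation genes gave 4 and 8. An unadjusted p below 0.05 gave 25 and 12 (large 15 and 8, small 4 lower, other translation 7 and 17). Without genes that have a near-identical copy, 2 rose and 2 fell (large 0 and 1, small 2 risers). Relative to the median of all rows (-0.23), 25 passed as higher and 0 as lower (large 15 and 0, small 0 lower, other translation 7 and 0), the subunit medians were 0.47 (large) and 0.55 (small), and Rplp1 (0.040), Rps20 (0.049) and Rps24 (0.011) reversed. The median of all rows comes from a list filtered by p and does not measure a general offset between the groups. Without genes overlapping another gene the large subunit median was 0.31. With each CaKO library left out in turn, 11 to 14 rose and 1 to 5 fell (large 5 to 8 and 0 to 4, other translation 0 to 2 and 1 to 5). Only losses were counted here: a gene also had to pass with all 4 libraries, so no number could grow. The cause of these changes was not tested, apart from the smaller number of genes or libraries that an alternative leaves. Including Fau and rescaling libraries to equal totals changed no direction.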
